A study of Mus musculus with 75 samples.

Results

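Small leucine-rich proteoglycans (SLRPs) are secreted proteins of the extracellular matrix, and 9 of their genes were followed across mouse skin fibroblasts in culture: Dcn, Bgn and Aspn (class I), Lum, Fmod, Prelp and Omd (class II), Ogn (class III) and Podn (class V). They were chosen by name from the 24984 genes of each RNA-seq count file. All cells were C57BL/6 skin fibroblasts. For the time series, female mice aged 2 months gave untreated fibroblasts that were split 1:3 at each passage, and 4 RNA-seq libraries were made at each of passage 1 (P1), P3, P5 and P7 as the cultures approached replicative senescence, the arrest that follows repeated division. ATAC-seq, which cuts accessible DNA with a transposase, was done in 4 samples at P1 and 3 at each later passage. The interventions were E2f4 overexpression from a doxycycline-inducible lentivirus against vector overexpression, whose cells expressed EGFP per the methods (2 libraries each), E2f4 knockdown with the shRNA sh1 against a non-targeting control (nt), Tead1 knockdown with sh3 or sh4 against its own nt, and Atf3 knockdown with sh5 or sh6 against its own nt (3 libraries in each shRNA group). E2f4 and Tead1 encode transcription factors, and Atf3 encodes a member of the AP-1 family. The study's account gives pre-senescent P4 cells for E2f4 overexpression and proliferating P3 cells for its knockdown, while its methods name only P2 and P3 for proliferating cells and P6 for intervening in senescence. Manipulated cells came from 2-month-old or newborn mice without a statement of which library held which, so levels were compared within an experiment only. The labels do not say whether libraries of a group came from separate animals, so each p-value measures the spread between these libraries.

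An SLRP has a core of leucine-rich repeats that folds into a curved solenoid and, in most members, carries glycosaminoglycan chains. Decorin (Dcn) and biglycan (Bgn) bear chondroitin or dermatan sulphate, lumican (Lum), fibromodulin (Fmod) and osteomodulin (Omd) can bear keratan sulphate, and asporin (Aspn) and PRELP usually carry no such chain. Many members bind collagen fibrils and govern how fibrils assemble and how thick they grow, and several bind TGF-beta or cell surface receptors. In skin they are products of dermal fibroblasts, and decorin is the best known of them there.

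Of the members, 7 lie beside another member in the genome. On GRCm38, Dcn (chr10:97479500-97518163) is followed by Lum (chr10:97565501-97572703) after 47337 bases, Prelp (chr1:133910304-133930102, minus strand) and Fmod (chr1:134037254-134048280) lie 107151 bases apart, and Aspn (chr13:49544443-49567565), Omd (chr13:49582462-49592612) and Ogn (chr13:49608015-49624501) form a run with gaps of 14896 and 15402 bases. No other protein-coding gene lies between the genes of each set. Bgn (chrX:73483601-73495936) and Podn (chr4:108014793-108031954, minus strand) stand alone. The 3 genes on chromosome 13 lie within the span of Cenpp, a centromere protein gene on the opposite strand. The counts ignored strand, but RefSeq exons of Cenpp and of these genes share 0 bases, and the same holds for every member and any other gene.

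Upstream sequence was in the reference table for 7 members (all but Dcn and Lum). Shown first are the 250 bases before the start sites of the chromosome 13 genes, which fell together when E2f4 was overexpressed, 5′ to 3′ on the gene's strand (RefSeq, GRCm38.p6). Capitals mark TATAAA or the TEAD motif GGAATG.
Aspn (chr13:49544193-49544442, plus strand): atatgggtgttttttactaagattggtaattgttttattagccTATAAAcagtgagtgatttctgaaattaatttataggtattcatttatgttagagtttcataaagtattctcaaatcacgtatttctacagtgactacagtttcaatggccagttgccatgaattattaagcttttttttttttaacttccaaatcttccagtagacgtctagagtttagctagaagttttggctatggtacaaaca
Omd (chr13:49582212-49582461, plus strand): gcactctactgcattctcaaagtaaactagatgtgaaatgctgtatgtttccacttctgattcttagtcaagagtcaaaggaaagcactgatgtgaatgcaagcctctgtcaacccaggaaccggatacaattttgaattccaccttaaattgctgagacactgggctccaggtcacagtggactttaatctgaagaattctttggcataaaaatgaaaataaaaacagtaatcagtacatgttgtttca
Ogn (chr13:49607765-49608014, plus strand): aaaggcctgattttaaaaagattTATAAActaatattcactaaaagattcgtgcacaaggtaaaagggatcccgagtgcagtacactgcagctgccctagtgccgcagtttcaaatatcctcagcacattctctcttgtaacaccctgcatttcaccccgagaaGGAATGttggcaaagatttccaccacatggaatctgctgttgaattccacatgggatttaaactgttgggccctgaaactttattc
Of 32851 promoter windows (250 bases before to 50 after a start site), 14.7% held GGAATG on either strand, and the Ogn window held it once, starting at position -86 from the start site. TATAAA on the gene's strand was in 8.32% of windows, among them Aspn (from -207) and Ogn (from -227). The E2F motifs TTTCCCGC, TTTGGCGC, TTTGCCGC and TTTCGCGC (either strand, in 2.26% of all windows) and the AP-1 motifs TGACTCA and TGAGTCA (in 5.2%) were in no member's window. Shown next are the 100 bases before the start sites of the other members whose promoter accessibility separated P1 from P7 below.
Bgn (chrX:73483501-73483600, plus strand): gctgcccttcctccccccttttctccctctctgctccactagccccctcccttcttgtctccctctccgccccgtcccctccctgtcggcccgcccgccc
Prelp (chr1:133921402-133921501, minus strand): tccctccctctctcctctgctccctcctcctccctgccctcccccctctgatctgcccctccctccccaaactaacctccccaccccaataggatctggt
Podn (chr4:108031955-108032054, minus strand): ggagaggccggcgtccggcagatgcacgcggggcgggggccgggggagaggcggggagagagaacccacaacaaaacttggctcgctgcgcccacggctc
None of the motifs fell in these 3 stretches, so they hold no capitals. The Prelp start site of the table lies inside the gene's annotated span. The 250 bases upstream were richer in G and C at Podn (78%, and 64% at its second start site) and Bgn (64.4%) than at Aspn (30%), Omd (38.4%) and Ogn (42%), beside a median of 52.4% and quartiles of 45.2% and 61.2% over all windows.

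Sequencing depth was between 9147324 and 27552949 counts on genes per library, and members took 0.371% to 0.93% of them. All 9 members passed the filter on low counts in all 5 experiments. Of 10 fibroblast markers, all were detected in every group, with a summed level of 23330 to 25030 CPM (counts scaled to a common library size) at P1 and 33330 to 43540 later. Among these markers, Col1a1, Col1a2 and Col3a1 had means of 8997, 5625 and 1811 CPM at P1 and 12960, 9073 and 7249 at P7. Markers of several other cell types were highest at P1. The 12 macrophage markers summed to 367 to 557 CPM at P1 and 26.5 to 74.8 later, the 10 keratinocyte markers to 63.4 to 387 and 3.09 to 13.2, and the 8 endothelial markers to 167 to 179 and 12.4 to 57.8. Skeletal muscle markers (153 to 238 at P1, 30.5 to 110 later) and adipocyte markers (61.0 to 71.7, 7.497 to 22.5) were higher at P1 too, whereas the Schwann cell and melanocyte sums (67.3 to 77.0, 62.0 to 142) overlapped and those of smooth muscle and myofibroblasts (2541 to 3922, 4265 to 8298) were lower at P1. The targeted genes followed the labels in 3 experiments. E2f4 rose from 41.5 to 1149 CPM with overexpression (log2 fold change 4.80 ± 0.15, SE, edgeR adjusted p = 7.07e-08) and fell from 60.03 to 21.3 CPM with sh1 (-1.50 ± 0.09, adjusted p = 2.14e-07), and Tead1 went from 541 CPM to 279 with sh3 and 316 with sh4 (edgeR adjusted p = 4.63e-17 and 8.58e-15), which is less than a 2-fold loss. Atf3 was scarce: 2.98 ± 0.289 CPM (SD, n = 3) in nt, 1.34 ± 0.831 with sh5 (edgeR adjusted p = 0.0447) and 1.72 ± 0.322 with sh6 (adjusted p = 0.114). The sh5 libraries held 1.46, 2.10 and, in replicate 3, 0.451 CPM (27, 41 and 8 counts), and the sh6 libraries 1.51, 1.56 and 2.09. At Atf3, sh6 against sh5 was not called (0.35 ± 0.42, edgeR adjusted p = 0.504). Per the paper, Atf3 knockdown was checked by RT-qPCR and immunoblot. Since sh6 did not pass against nt here, its libraries are called the libraries labelled Atf3 sh6.

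Levels between genes were compared as CPM per kilobase of exon. Bgn was the highest member in all 14 RNA-seq groups, at 1086 ± 42.9 (SD, n = 4) CPM per kilobase at P1 and 1914 ± 89.7 at P7. The order below it changed with passage. At P1 the order was Dcn (475 ± 82.5), Aspn (72.0 ± 15.4), Lum (30.0), Prelp (22.4), Ogn (14.6), Fmod (8.46), Podn (2.67) and Omd (2.59). Lum and Prelp, Prelp and Ogn, and Podn and Omd overlapped between libraries at P1, and the other neighbours in this order did not. At P7, Prelp (194 ± 18.5) came second, but its libraries overlapped those of Dcn (135 ± 48.5), which in turn overlapped those of Aspn (77.5 ± 33.8). Fmod (24.6), Podn (9.60), Lum (7.72), Ogn (3.37) and Omd (0.596) followed, and of these only Podn and Lum overlapped. Bgn made up 62.8% to 67.8% of the members' summed CPM at P1 and 75.7% to 81.6% at P7.

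**Figure D1:**
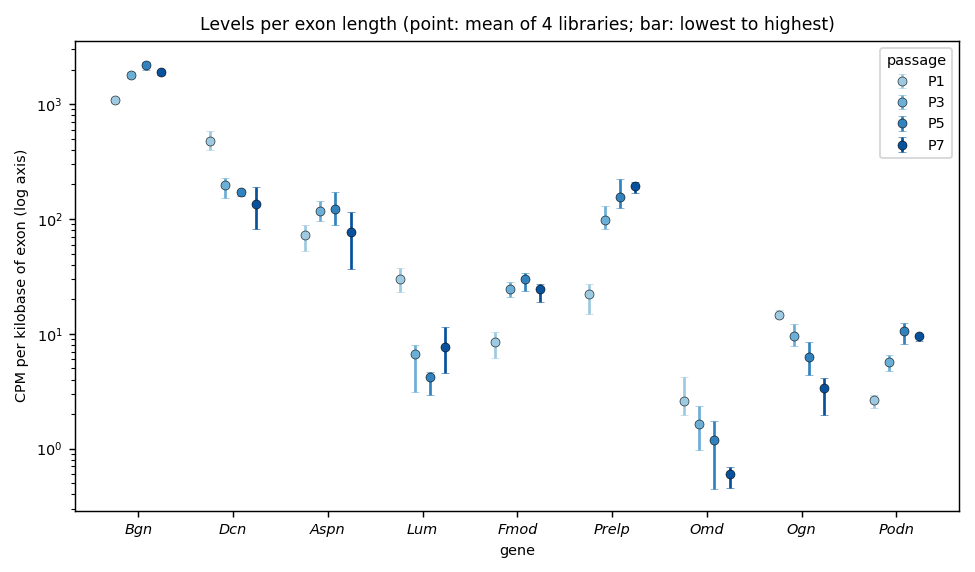
Mean CPM per kilobase of exon of each member at each passage on a log axis, with bars from the lowest to the highest of the 4 libraries. Bgn stays on top, Prelp is higher at each later passage, and Lum, Ogn and Omd are lower at P7 than at P1.

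The passage series asked how expression moved as the fibroblasts went into senescence, and the members split. Prelp, Fmod and Podn rose from P1 to P7, Dcn, Lum, Ogn and Omd fell, and Bgn and Aspn did not pass the thresholds (edgeR quasi-likelihood test, adjusted p under 0.05 and a fold change over 2). In all, 3 members rose where 8.1% of the 13442 genes tested did, and 4 fell where 13.3% did. The median log2 fold change was 0.11 over the members and -0.01 over all genes. In such bulk samples fewer cells of a type and less RNA per cell cannot be told apart, and the part of the other cell types in these differences was not tested.

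**Figure D2:**
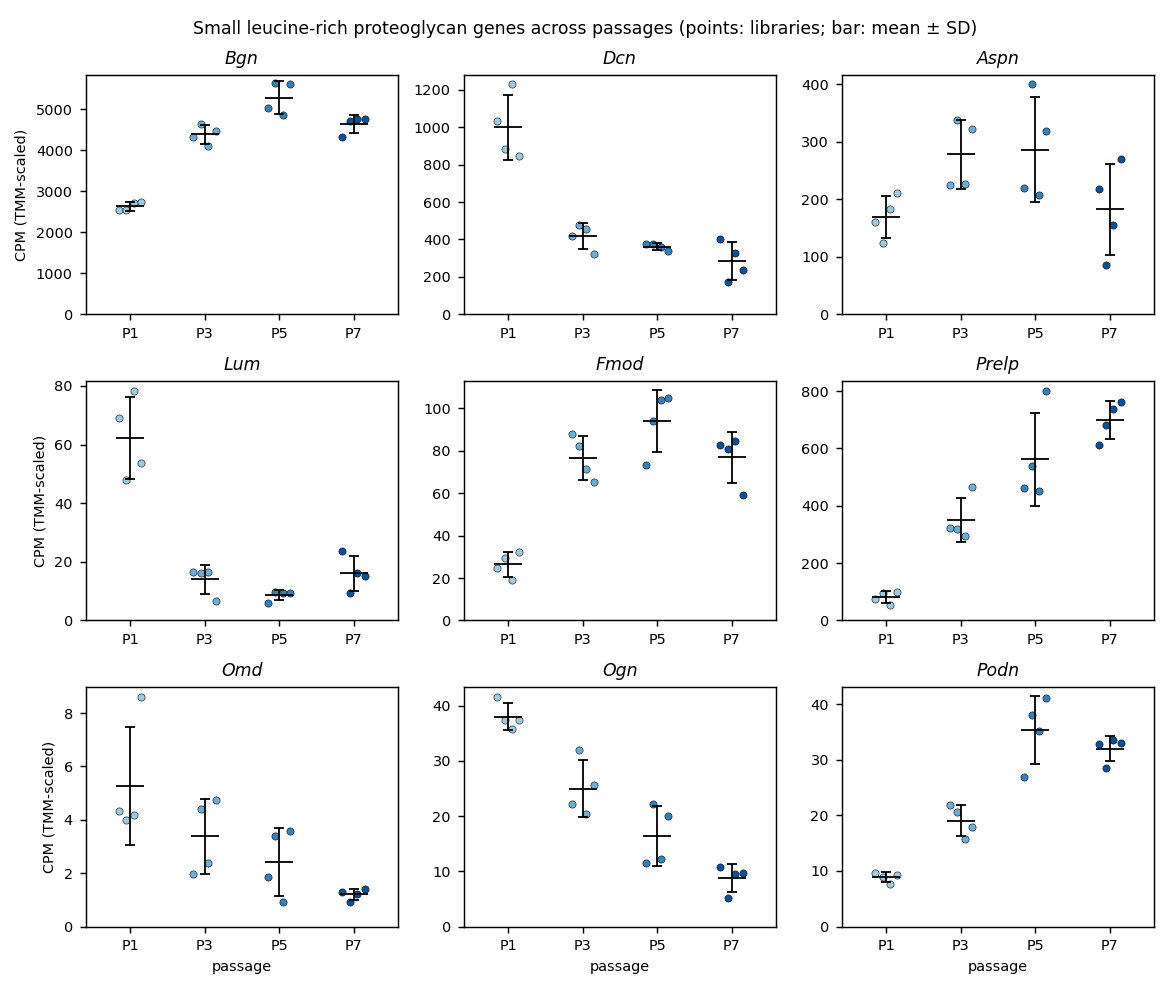
CPM of each member in every library at P1, P3, P5 and P7, with a bar for the mean ± SD (n = 4), each panel on its own linear axis from 0. Prelp, Podn, Fmod and Bgn sit above their P1 libraries at every later passage, and Dcn and Lum sit below theirs.

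Prelp, which binds collagen and heparan sulphate and can anchor basement membrane to connective tissue, had the largest fold change of the 9 members at P7. It measured 76.4, 94.9, 53.4 and 98.5 CPM in the P1 libraries, and 612, 682, 737 and 762 CPM at P7. The groups lay far apart, with a log2 fold change of 3.11 ± 0.20 (SE, edgeR adjusted p = 1.42e-10). Its means were 350 CPM at P3 and 563 at P5, and P7 against P3 gave 0.99 ± 0.19 (edgeR adjusted p = 0.000247), at the 2-fold limit. One P3 library, at 464 CPM, stood above the other 3 (294 to 322), and without it the difference was 1.17. Prelp was also called with DESeq2 or its size factors (1.00), with only the 2 groups in the fit (1.02) and with the replicate block (1.02).

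Podn (podocan) and Fmod, a regulator of collagen fibril growth, rose with it. Podn measured 7.59 to 9.72 CPM at P1, 15.8 to 21.9 at P3, 27.0 to 41.1 at P5 and 28.6 to 33.5 at P7, and no library at P3 or later reached down to P1. Its log2 fold change from P1 was 1.10 ± 0.14 at P3, 1.99 ± 0.14 at P5 and 1.84 ± 0.14 at P7 (edgeR adjusted p = 4.81e-06, 8.07e-10 and 7.52e-10). Fmod was already at its P7 level by P3. It measured 19.2 to 32.3 CPM at P1, 65.3 to 88.1 at P3, 73.5 to 104.9 at P5 and 58.9 to 84.5 at P7, and P7 against P3 was 0.00 ± 0.15. Bgn, the most abundant member, went from 2531 to 2729 CPM at P1 to 4111 to 4631 at P3, 4849 to 5642 at P5 and 4314 to 4768 at P7. All its later libraries were above P1 (edgeR adjusted p = 3.09e-08 at P7), but the change was 1.76-fold at P7 and touched the 2-fold limit only at P5 (2.01-fold, log2 1.00), a call that was lost with DESeq2 (log2 0.996), with DESeq2 size factors (0.996), with at least 10 counts in every library and without P1 replicate 1 or 2 or P5 replicate 2 or 4.

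Dcn had fallen by P3. Its P1 libraries held 1036, 885, 1229 and 846 CPM, its P3 libraries 417, 480, 455 and 322, and its P7 libraries 404, 172, 328 and 234. Every later library was below every P1 library, and the log2 fold change was -1.25 ± 0.19 at P3 and -1.81 ± 0.19 at P7 (edgeR adjusted p = 4.39e-05 and 1.3e-07). Lum, a keratan sulphate proteoglycan that limits fibril thickness, fell at first further than Dcn: from 47.8 to 78.2 CPM at P1 to 6.51 to 16.6 at P3 and 6.07 to 9.68 at P5, then 9.41 to 23.6 at P7. The drop from P1 was 7.18-fold at P5 and 3.88-fold at P7 (log2 -2.84 ± 0.27 and -1.96 ± 0.26, edgeR adjusted p = 6.07e-08 and 2.11e-06), and P7 against P5 gave 0.89 ± 0.28 (adjusted p = 0.0319), under the 2-fold limit.

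Ogn (osteoglycin, also called mimecan) and Omd had lower means at each later passage. Ogn measured 41.6, 37.4, 35.7 and 37.4 CPM at P1, 20.3 to 31.9 at P3, 11.4 to 22.2 at P5 and 10.7, 5.09, 9.53 and 9.72 at P7. Its log2 fold change from P1 grew from -0.61 at P3, which was not called, to -1.21 at P5 and -2.12 ± 0.22 at P7 (edgeR adjusted p = 8.4e-08), and P7 was also below P3 (-1.51 ± 0.22, adjusted p = 1.5e-05). Omd, best known from bone, was the scarcest member, with 59 to 139 counts in the P1 libraries and 12 to 19 at P7. It went from 4.01 to 8.601 CPM at P1 to 0.926 to 1.41 at P7 (-2.11 ± 0.39, edgeR adjusted p = 0.00012), and P7 was below P3 by 1.46 ± 0.41 (adjusted p = 0.00588). Its call at P5 rested on single libraries: the log2 fold change of -1.12 became -0.78 (edgeR adjusted p = 0.0796) without P1 replicate 4, and -0.84 without P5 replicate 3. Aspn, which binds collagen and TGF-beta, measured 124 to 211 CPM at P1, 225 to 338 at P3, 208 to 402 at P5 and 86.3 to 270 at P7. The values at P3 and P5 were 1.64-fold and 1.69-fold those at P1 (edgeR adjusted p = 0.0453 and 0.0234), under the 2-fold limit, and P7 and P1 overlapped.

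Fewer members were called between later passages than against P1. At P3 against P1, 3 members rose and 2 fell (background 2.4% and 6.58% of genes), and at P5 against P1, 4 rose and 4 fell (background 4.83% and 10.1%). Between P3 and P7, Ogn and Omd fell and no member rose, where 7.41% of genes fell and 4.44% rose, and without P3 replicate 4, P7 replicate 1 or P7 replicate 2 Prelp was called too, as it was in the alternatives given above. P5 against P3 and P7 against P5 called 0 members with edgeR and 0 with DESeq2 (background 3.89% and 3.47%). With an edgeR adjusted p under 0.05 alone, 4 and 2 members passed, as did 3862 and 2254 of the 13442 genes. At an unadjusted p under 0.05 there were 5 members in each, a rule whose share of all genes was not counted. One library decided some calls between these passages: Podn was called at P5 against P3 without P5 replicate 1, and 1 or 2 members were called at P7 against P5 without P5 replicate 1 or 3 or P7 replicate 1 or 2.

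Genes that build, cut or bind these proteoglycans moved in both directions from P1 to P7, where 8.1% of all genes rose and 13.3% fell. None of 7 enzymes that start the glycosaminoglycan chain was called (median log2 fold change 0.17). Of 16 chondroitin and dermatan sulphate enzymes, 2 rose and 3 fell: Csgalnact1, which begins chondroitin chains, rose by 1.28, and the sulphotransferase Chst3 had the lowest value, -2.17. Of 7 keratan sulphate enzymes tested, the galactosyltransferase B4galt4 rose (1.12). Among 6 tested genes that process propeptides, the protease Tll1 rose (1.76). Of 11 enzymes that degrade proteoglycans 2 rose and 4 fell, with the aggrecanase Adamts5 at the top (2.02) and the macrophage elastase Mmp12 at the bottom (-7.33). Of 10 collagens, 4 rose and 1 fell (median 0.61), with Col3a1 highest (2.00 ± 0.14, SE, edgeR adjusted p = 3.14e-10) and Col6a3 lowest (-1.17). Of 13 ligands and receptors that bind SLRPs, only the collagen receptor chain Itga2 was called (-2.23). Of 17 other proteoglycans 4 rose and 4 fell, from the glypican Gpc4 (1.72) down to the testican Spock1 (-5.03). Among 5 tested relatives, Optc, which neighbours Prelp, rose by 1.51 and Podnl1 had the lowest value, -1.42.

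Promoter accessibility was read as the strongest ATAC-seq peak within 1000 bases of a member's start site, given as its percentile among all peaks of that sample (142384 to 231558 peaks), with 0 for no peak. The lists held 168982 to 186562 peaks at P1 and 200376 to 231558 at P7, so the percentile ranks a peak within lists of different length, whose part in the differences was not tested. The groups of P1 (n = 4) and P7 (n = 3) did not overlap at 5 of the 9 members, higher at P7 at Podn, Prelp and Ogn and lower at Lum and Bgn. Over all genes scored, 62.1% had such a peak in every sample, as did 6 of the 9 members. Over the 22741 genes scored, P7 lay wholly above P1 at 9.92% and wholly below at 22.3%. With 4 against 3 samples, the smallest 2-sided p of the exact permutation test is 0.0286, so none would pass a correction over 9 members. By bases covered with peaks in the same window, 0 members were higher at P7 and 3 were lower without overlap: Lum (-448 bases, exact permutation p = 0.0286), Omd (-508.8, p = 0.0286) and Podn (-603.6, p = 0.0571). The share of all genes without overlap by covered bases was not counted, so these 3 members cannot be set beside a background.

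The Lum peak was weaker at P7, where its RNA was lower too. Its percentiles were 45.0, 47.5, 50 and 41.8 at P1, 10.7, 0 and 0 at P3, 8.4, 29.9 and 0 at P5, and 0.8, 0.4 and 0 at P7 (exact permutation p = 0.0286 for P7 against P1). No sample after P1 reached the lowest P1 value. Podn, whose RNA rose, went from 59.5, 65.1, 55.1 and 60.2 at P1 to 81.0, 85.9 and 82.1 at P7 (exact permutation p = 0.0286). The direction at Podn depended on the measure: it was the reverse within 500 bases (a difference of -16.2 percentile points) and by covered bases.

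Prelp also went up, from 47.0, 49.2, 28.9 and 42.6 to 60.5, 53.3 and 62.5 (exact permutation p = 0.0571), and by covered bases its groups overlapped (305.8, exact permutation p = 0.429). Bgn had percentiles of 47.0, 41.2, 49.3 and 41.0 at P1 and 13.5, 4.3 and 24 at P7 (exact permutation p = 0.0286), while its RNA was 1.76-fold that at P1, and by covered bases its difference was 74.3 upward (exact permutation p = 0.6). Ogn went from 82.2, 87.6, 80.6 and 89.6 to 95.1, 95.0 and 92.6 (exact permutation p = 0.0571), while its RNA fell, and by covered bases its groups overlapped (19.8, exact permutation p = 0.657). Dcn, whose RNA also fell, kept a mean percentile of 86.4 at P1 and 86.5 at P7 (exact permutation p = 0.943), and Aspn (65.2 and 65.5) and Omd (83.3 and 85.6) overlapped between P1 and P7 by percentile too. Fmod had no peak at P1 or P7.

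**Figure D3:**
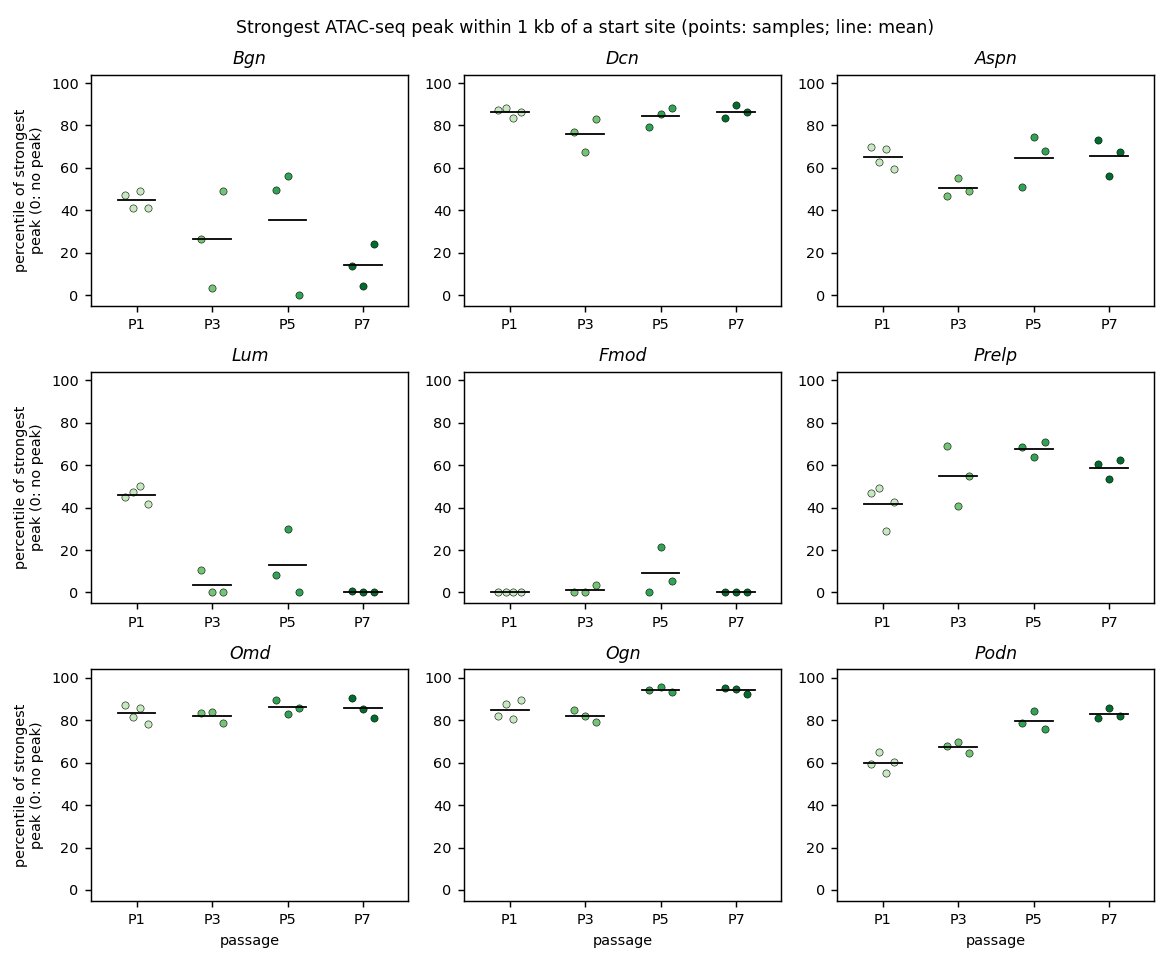
Percentile of the strongest ATAC-seq peak within 1000 bases of each member's start site in every sample at P1 (n = 4), P3, P5 and P7 (n = 3 each), with a line for the mean and 0 for no peak. Lum falls to below 1 at P7, Podn rises to above 80, and Dcn stays near 86 at P1 and P7.

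E2f4 overexpression lowered the 3 neighbours on chromosome 13 and called no other member. Aspn measured 47.2 and 33.2 CPM with E2f4 and 292 and 263 with vector. Ogn measured 20.7 and 15.1 CPM against 127 and 89.7, and Omd 1.13 and 0.382 CPM against 8.78 and 6.74, from 31 and 8 counts against 201 and 117. No overexpressing library came near a vector library at any of the 3. Their log2 fold changes were -2.78 ± 0.16, -2.60 ± 0.19 and -3.29 ± 0.35 (edgeR adjusted p = 2.54e-06, 6.47e-06 and 3.84e-05). Thus 3 of 9 members fell and 0 rose, where 10.4% of the 13199 genes tested fell and 7.69% rose, and the members' median was -0.54 against 0.01 for all genes.

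Ecm2, an SLRP relative in the same cluster, fell as well (-1.96 ± 0.34, edgeR adjusted p = 0.000655), and Cenpp, which spans these genes on the other strand, was at 0.85 ± 0.23, under the 2-fold limit. Dcn measured 43.1 and 43.6 CPM against 91.8 and 73.0, a 1.9-fold difference (edgeR adjusted p = 0.000187) that passed 2-fold only without vector replicate 2 (log2 -1.08), when 1 vector library stood for its group. The other members differed by less than 2-fold, from Podn (0.70) and Fmod (0.63) on the higher side through Lum (0.01) to Bgn (-0.31) and Prelp (-0.54). The promoter windows of Aspn, Omd and Ogn held none of the E2F motifs searched, which only 2.26% of all windows held, and binding of E2F4 at these genes was not tested here.

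Around the members, E2f4 overexpression raised the linker enzyme Xylt1 (1.95) and called 0 of 10 collagens with edgeR. The 8 cartilage and bone markers summed to 1548 and 1583 CPM with E2f4 and 541 and 622 with vector, with Col2a1 at 719 against 187 CPM, Acan at 541 against 271 and Sox9 at 222 against 53.1, beside sums of 45.7 to 109 in all other groups. The part of these genes in the change of the chromosome 13 members was not tested.

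E2f4 knockdown with sh1 called 0 members with edgeR and 0 with DESeq2, where 1.67% of 12310 genes were called. With an edgeR adjusted p under 0.05 alone, 5 members passed, as did 2192 of the 12310 genes. At an unadjusted p under 0.05 there were also 5, a rule whose share of all genes was not counted. Fmod measured 80.5 to 94.3 CPM with sh1 and 54.4 to 59.5 with nt (0.59 ± 0.08, edgeR adjusted p = 0.000219), and Ogn 24.02 to 28.1 against 33.2 to 41.4 (-0.52 ± 0.11, adjusted p = 0.00403). Neither pair of groups overlapped, and both differences were under 2-fold. In a joint fit, the effect of overexpression was lower than that of knockdown at Aspn (-2.66), Omd (-2.60), Ogn (-2.06) and Dcn (-1.28), all called (edgeR adjusted p = 4.36e-09, 0.000449, 1.08e-06 and 9e-07), where 11.2% of 12969 genes were lower. Both manipulations gave values of the same sign at Aspn, Ogn and Omd (negative) and at Fmod, Podn and Lum (positive), and with sh1 Omd was at -0.68 ± 0.33 (edgeR adjusted p = 0.173). Since the knockdown was done in proliferating cells and the overexpression in pre-senescent cells, stage, experiment and manipulation cannot be told apart in this difference.

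Tead1 knockdown asked what a partial loss of this factor did, and few members passed both thresholds. With sh3, Lum rose and Omd fell, where 1.99% of the 13012 genes tested rose and 0.722% fell. Lum measured 7.47, 7.72 and 7.13 CPM with sh3 and 2.54, 4.14 and 2.33 with nt (1.31 ± 0.19, edgeR adjusted p = 1.98e-06), and 3.45, 5.34 and 4.47 with sh4, which overlapped nt. Omd measured 1.03, 0.882 and 0.544 CPM with sh3 and 1.97, 2.10 and 1.91 with nt (-1.28 ± 0.33, adjusted p = 0.00272). Lum differed between the hairpins by -0.75 ± 0.18 for sh4 against sh3 (edgeR adjusted p = 0.00721), under 2-fold, and Omd by 0.57 ± 0.35 (adjusted p = 0.387). With sh4, 0 members were called by edgeR and 0 by DESeq2 (background 1.53%), and sh4 against sh3 also called 0 with both (background 0.269%). With an edgeR adjusted p under 0.05 alone, 6 and 3 members passed, as did 3788 and 959 of the 13012 genes. At an unadjusted p under 0.05 there were 7 and 5 members, a rule whose share of all genes was not counted.

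Other members differed from nt in the same direction with both Tead1 hairpins, below the 2-fold limit. Prelp measured 281 to 314 CPM with sh3, 264 to 286 with sh4 and 176 to 177 with nt (log2 0.77 ± 0.04 and 0.65 ± 0.04, edgeR adjusted p = 1.42e-14 and 1.08e-12). Fmod measured 198 to 208, 190 to 194 and 124 to 129 CPM (0.68 and 0.61). Aspn was lower with both (-0.58 and -0.71), and Ogn, whose upstream window held the TEAD motif, was at 0.55 and 0.47. The knockdowns share their nt libraries, so the values stand side by side and are not independent.

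The Atf3 hairpins differed from each other at most members. In the libraries labelled Atf3 sh6, 7 members fell and none rose, where 10.9% of the 13345 genes tested fell and 4.83% rose, and the members' median was -1.87 against -0.02 for all genes. With sh5, only Prelp was called (lower, where 3.82% of genes were and 1.38% were higher), and Lum, Dcn and Aspn were at 0.90, 0.83 and 0.74. Replicate 3 of sh5 stood apart from replicates 1 and 2: the chi-square per degree of freedom over genes was 59.4 and 63.7 against them and 3.29 between them. Dcn measured 1344 CPM in it and 739 and 752 in the others, and without it Dcn was at 0.51 (edgeR adjusted p = 0.000229), Lum at 0.93, Aspn at 0.68, Fmod at -0.79, Podn at -0.64 and Prelp at -0.88, with no member called.

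Fmod and Prelp had the largest fold changes with sh6. Fmod measured 6.33, 6.11 and 6.51 CPM with sh6, 71.3, 81.7 and 59.7 with sh5 and 139, 133 and 132 with nt, and the 3 groups were separate. Its log2 fold change was -4.41 ± 0.13 with sh6 (edgeR adjusted p = 1.78e-08) and -0.93 ± 0.10 with sh5 (adjusted p = 0.000335). Prelp measured 7.15, 10.9 and 8.66 CPM with sh6, 96.3, 103 and 68.2 with sh5 and 195, 188 and 177 with nt. Both hairpins passed at Prelp (-4.39 ± 0.19 and -1.07 ± 0.16, edgeR adjusted p = 1.01e-07 and 0.00126), but the sh5 call was lost without sh5 replicate 3 (-0.88), and without sh5 replicate 2 Fmod (-1.04) and Podn (-1.02) were called with it. Podn measured 28.6 to 33.4 CPM with sh6, 39.7 to 66.8 with sh5 and 96.5 to 102 with nt (-1.65 ± 0.16 and -0.85 ± 0.16, edgeR adjusted p = 1.51e-05 and 0.00317).

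Ogn, Lum and Aspn fell with sh6 and not with sh5. Ogn measured 4.77, 3.96 and 7.55 CPM with sh6, 109, 102 and 122 with sh5, and 112, 88.2 and 96.9 with nt. Only the sh6 libraries stood apart from nt (-4.18 ± 0.20, edgeR adjusted p = 1.73e-07). Lum measured 7.09, 7.97 and 12.4 CPM with sh6, 105.1, 111 and 108 with sh5 and 59.9, 53.6 and 59.3 with nt (-2.65 ± 0.17 and 0.90 ± 0.15, edgeR adjusted p = 1.01e-06 and 0.00225). Aspn measured 113, 124 and 171 CPM with sh6, 776, 790 and 930 with sh5 and 541, 452 and 497 with nt (-1.87 ± 0.15 and 0.74 ± 0.14, edgeR adjusted p = 3.88e-06 and 0.00401). At Lum and Aspn the nt libraries lay between the hairpins without overlap.

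Omd fell with sh6 too, from 3.28 to 4.28 CPM in nt to 1.56 to 2.09 (-1.12 ± 0.23, edgeR adjusted p = 0.00221). Bgn measured 3278 to 3704 CPM with sh6 and 6266 to 7000 with nt, a 1.89-fold difference (edgeR adjusted p = 5.74e-06), and Dcn 358, 341 and 415 against 584, 479 and 536 (-0.52 ± 0.20, adjusted p = 0.0547). Since Bgn holds most of the members' counts, their summed level was 4055 ± 280 CPM (SD, n = 3) with sh6, 9031 ± 175 with sh5 and 8191 ± 471 with nt. The test of sh6 against sh5 itself called 7 members lower (Ogn -4.35, Lum -3.55, Fmod -3.49, Prelp -3.32, Aspn -2.61, Dcn -1.35 and Omd -1.28), where 9.39% of genes were called lower. Bgn (-0.97) was called too without sh5 replicate 3 or sh6 replicate 3, and Podn (-0.80) without sh5 replicate 3.

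Other matrix genes fell in the libraries labelled Atf3 sh6. Of 10 collagens, 4 fell and 0 rose (median -0.88), with Col14a1 lowest (-3.51), Col1a1 at -1.83 ± 0.21 and Col1a2 at -1.33 ± 0.13. Of 16 other proteoglycans tested, 6 fell and 0 rose, with the glypican Gpc3 lowest, and of 7 keratan sulphate enzymes 3 fell, with the sulphotransferase Chst1 lowest (-1.51). Among 10 degrading enzymes 3 rose and 2 fell, from Mmp12 (4.88) to Adamts15 (-3.10). The 10 fibroblast markers summed to 18980 to 19940 CPM with sh6 and 41540 to 43280 with nt, with 4 of 10 called lower. Most of these sums came from Col1a1, Col1a2 and Col3a1, at means of 4700, 4684 and 2698 CPM with sh6 and 16710, 11750 and 5108 with nt. The 6 smooth muscle and myofibroblast markers summed to 9535 to 10140 CPM and 4478 to 4809, with 4 called higher, and with sh5 to 3047 to 3372. The 11 skeletal muscle markers summed to 197 to 215 and 37.9 to 39.3 CPM, of which Acta1 made up 206 and 34.9, and Pax7, Myog and Myl1 were at 0 in all sh6 libraries. The part of these shifts in the members' fall was not tested.

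**Figure D4:**
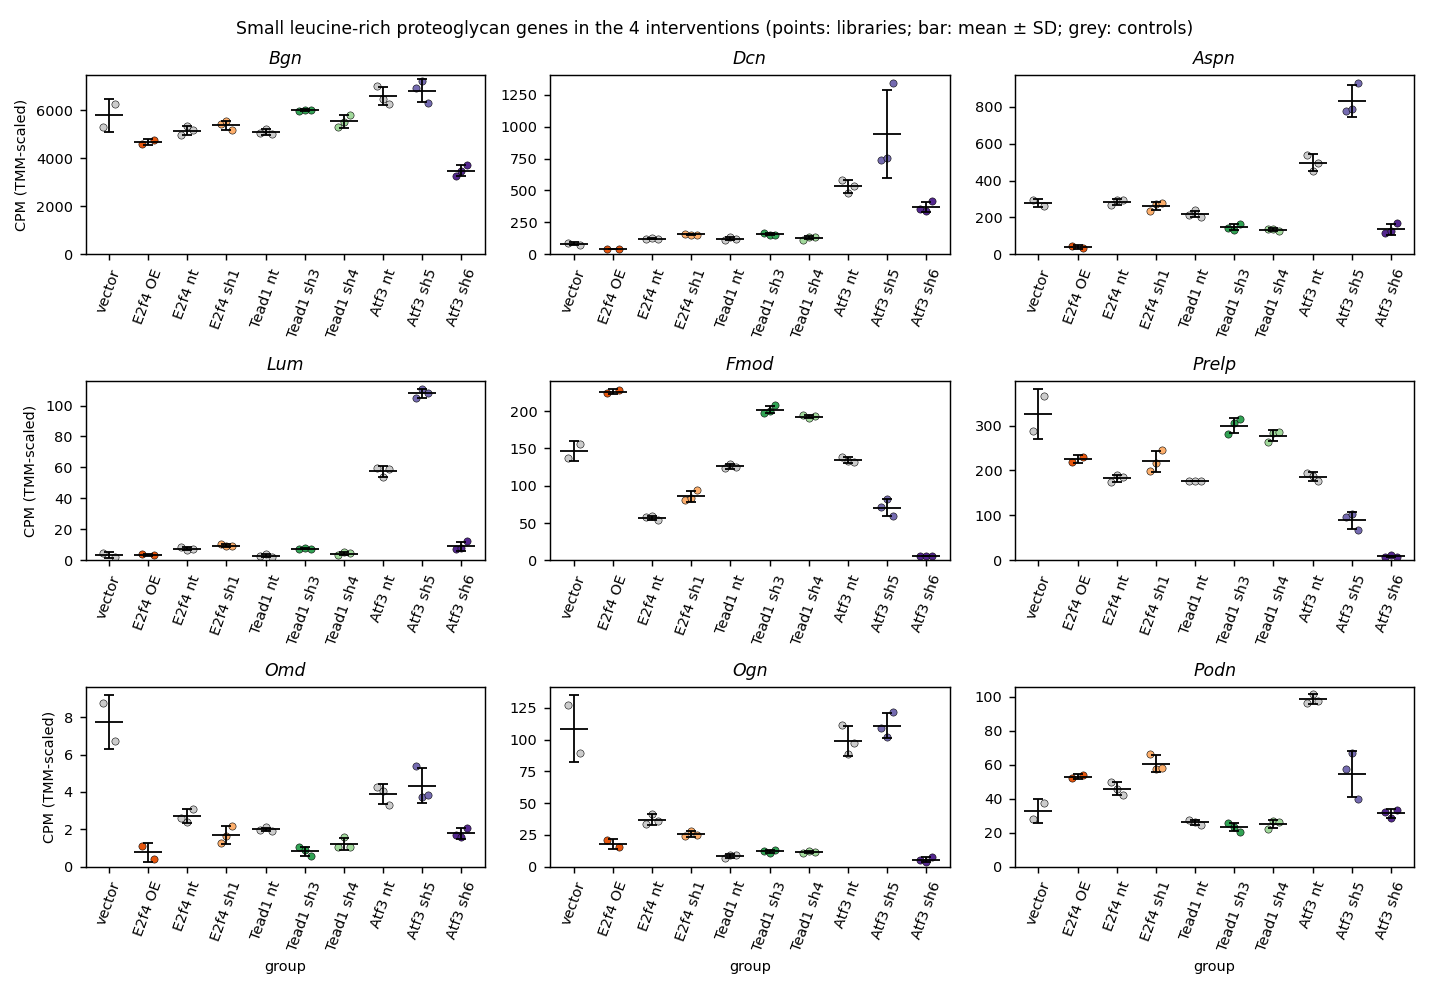
CPM of each member in every library of the interventions, with a bar for the mean ± SD (n = 2 for E2f4 overexpression and vector, n = 3 otherwise), controls in grey and each panel on its own linear axis from 0. Aspn, Omd and Ogn drop with E2f4 overexpression (Aspn from 277 to 40.2 CPM), and Fmod, Prelp and Ogn are near the axis with Atf3 sh6.

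**Figure D5:**
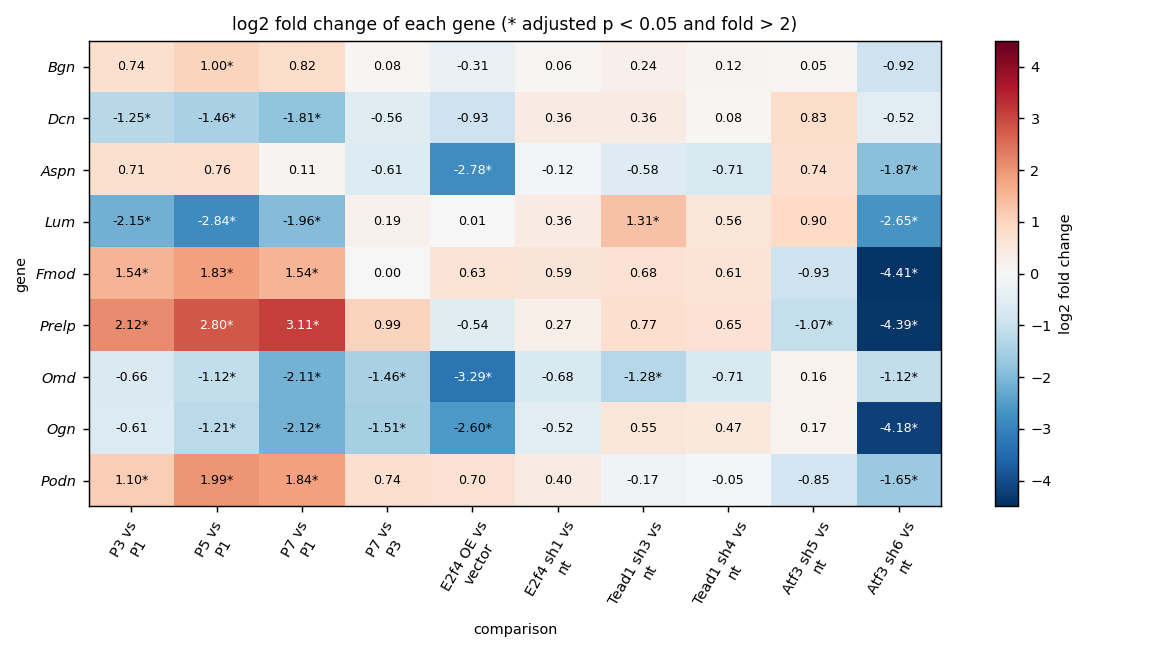
Log2 fold change of each member (rows) in 10 comparisons (columns), red for higher and blue for lower, with a star for an edgeR adjusted p under 0.05 and a fold over 2. The blue run of Aspn, Omd and Ogn stands in the E2f4 overexpression column, and in the Atf3 sh6 column all values are negative, from -0.52 at Dcn to -4.41 at Fmod.

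Control levels differed between experiments. Lum was at 57.6 CPM in the Atf3 nt libraries, 7.47 in the E2f4 nt libraries and 3.00 in the Tead1 nt libraries, and Ogn at 98.9, 36.9 and 8.16. Age of the donor mice, passage and experiment cannot be told apart for these controls.

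Genomic neighbours were compared with other pairs of members by how their levels varied. With log2 CPM centred on each experiment's mean, Pearson's r over the 44 libraries was 0.93 for Fmod and Prelp, 0.79 for Dcn and Lum, 0.76 for Aspn and Ogn, 0.69 for Omd and Ogn and 0.68 for Aspn and Omd. The median was 0.76 over these 5 pairs and 0.33 over the other 31, with a range of -0.54 to 0.93. Bgn and Prelp, on different chromosomes, reached 0.93. Without the Atf3 experiment, which left 35 libraries in an alternative added after the data were seen, the medians were 0.80 and -0.29, and Lum and Prelp went from 0.08 to -0.71. Over the 16 passage libraries alone, the medians were 0.86 over the 5 neighbour pairs and -0.53 over the other 31 (-0.94 to 0.95). Neighbours ranged more widely there: 0.91 for Fmod and Prelp, 0.89 for Omd and Ogn and 0.86 for Dcn and Lum, but 0.33 for Aspn and Omd and 0.28 for Aspn and Ogn. Among the other pairs, Prelp and Podn, on different chromosomes, reached 0.95 and Dcn and Ogn 0.84. These are descriptions over libraries that share groups and batches. The genes most like the members over the 44 libraries, of 9382 candidates, were Cd248 for Prelp (r = 0.966), Tcf4 for Ogn (0.957), Sorcs2 for Podn (0.951), Col11a1 for Fmod (0.947), Adamts5 for Bgn (0.945), Zfp984 for Aspn (0.918), Man1a for Lum (0.89), Cab39l for Dcn (0.859) and Atrx for Omd (0.843). Without the Atf3 experiment, r of the same pairs was 0.949, 0.887, 0.935, 0.841, 0.934, 0.87, 0.811, 0.837 and 0.853, in that order.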

How the data were processed

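RNA-seq was measured in 44 libraries and ATAC-seq in 13 samples, and 18 further samples were not analysed here. Per the labels and methods, the authors trimmed reads (Trimmomatic 0.39), used HISAT2 2.2.1 for alignment to the mm10 genome and HTSeq 0.12.4 for counting, which ignored strand, and deposited raw counts per gene. For ATAC-seq the authors aligned with Bowtie2 2.3.5.1 and deposited MACS2 peaks of each sample with signal values and −log10 p and q values.

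Rows for reads on no gene, listed in 28 files (7.5% to 16.76% of reads), were left out. Each of the 5 experiments was fitted apart in edgeR 4.0.16 (R 4.3.3) with filterByExpr, TMM factors and the quasi-likelihood test, Benjamini-Hochberg adjusted over 12310 to 13442 genes (12969 in the joint E2f4 fit). A gene was called at an adjusted p under 0.05 and a fold over 2. The SE of a log2 fold change was derived as its absolute value divided by the square root of the quasi-likelihood F statistic. Values in CPM use TMM-scaled library sizes. Scripts were tested on simulated data. DESeq2 1.42.0, other filters, scaling, left-out libraries and the replicate number as a block were alternatives. Replicates differed beyond sampling noise (chi-square per degree of freedom 2.75 to 63.7 over 50 pairs). At P7, replicate 1 gave 32.9, 34.3 and 43.8 against the other libraries, which gave 11.2 to 16.7 among themselves. Positions and sequences are RefSeq's on GRCm38, the assembly of mm10. The members and lists were chosen with earlier results of these data known. All members are named, and of other lists the highest and lowest gene of a comparison, cell type markers, collagens I and III, targeted genes and the 3 genes most like each member, of which the first is printed. B4galt4, Tll1, Itga2 and Xylt1 are such ends of their lists. Figures were drawn in matplotlib 3.10.9.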

Additional observations from a re-analysis of the deposited data

Results flagged for a closer look

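Single libraries stood apart from the other 3 of their group in 7 of 45 groups of 4 examined, where chance gives about 1 in 20. The 45 groups took in the P1 ATAC-seq samples of each member as well as the RNA-seq libraries, and all 7 were RNA-seq groups. Fmod had no ATAC-seq peak at P1, so that group could not be flagged. The members were read in the same libraries, so these groups are not independent and 7 of 45 cannot be weighed against that rate. Lum was low in 1 P3 library (6.51 CPM, next 16.3) and in 1 P5 library (6.07, next 9.40). Bgn was low in 1 P7 library (4314 CPM, next 4712), as were Fmod (58.9, next 81.1) and Podn (28.6, next 32.8). Prelp was high in 1 P3 library (464 CPM, next 322), and Omd was high in 1 P1 library (8.601, next 4.32).

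Effects differed between the hairpins and between the E2f4 experiments in tests of the difference itself (edgeR, Benjamini-Hochberg adjusted p). For Atf3 sh6 against sh5, log2 differences were -1.35 at Dcn, -2.61 at Aspn, -3.55 at Lum, -3.49 at Fmod, -3.32 at Prelp, -1.28 at Omd and -4.35 at Ogn, with adjusted p from 7.29e-08 to 0.000968. Targeted Atf3 itself differed by 0.35 ± 0.42 between these hairpins (edgeR adjusted p = 0.504). For E2f4 overexpression minus knockdown, they were -1.28 at Dcn, -2.66 at Aspn, -2.60 at Omd and -2.06 at Ogn, with adjusted p from 4.36e-09 to 0.000449.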

How the results depend on the processing

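With an adjusted p alone and no fold limit, more members were called: 8 at P3 against P1, 4 at P5 against P3, 2 at P7 against P5, 5 at P7 against P3, 8 with E2f4 overexpression, 5 with E2f4 sh1, 8 with Tead1 sh3, 6 with Tead1 sh4, 3 at sh4 against sh3 and 6 with Atf3 sh5. This rule called 4493, 3862, 2254 and 6896 of all 13442 genes in these passage comparisons, in that order. It called 7548 of 13199 genes with E2f4 overexpression, 2192 of 12310 with E2f4 sh1 and 4785 of 13345 with Atf3 sh5. For Tead1 it called 4601 of 13012 genes with sh3, 3788 with sh4 and 959 at sh4 against sh3. By covered bases, a measure whose share of all genes was not counted, 3 members in place of 5 had separate ATAC-seq groups, all lower at P7. Directions turned at values near 0 or by another ATAC measure: Fmod at P7 against P3 with no filter (-0.006), Lum with E2f4 overexpression with at least 10 counts (0), and ATAC-seq at Bgn (74.3 bases) and Podn (-603.6 bases, and -16.2 points within 500 bases).

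Leaving out 1 library at a time, members called ranged from 5 to 5 at P3, 7 to 8 at P5 and 7 to 7 at P7 against P1, 0 to 1 at P5 against P3, 0 to 2 at P7 against P5, 2 to 3 at P7 against P3, 3 to 4 with E2f4 overexpression (where the lone library was assumed to vary like the others), 0 to 3 with Atf3 sh5, 7 to 9 at sh6 against sh5 and 7 to 7 with sh6. Uncalled values that turned were Aspn at P7 against P1 (range -0.141 to 0.342) and P5 against P3 (-0.163 to 0.171), Fmod (-0.058 to 0.111) and Lum (-0.053 to 0.379) at P7 against P3, Lum with E2f4 overexpression (-0.405 to 0.705), Podn with Tead1 sh4 (-0.098 to 0.032), Omd with Atf3 sh5 (-0.034 to 0.264), and in the joint E2f4 fit Lum (-0.747 to 0.355) and Fmod (-0.035 to 0.157).

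The values do not settle whether replicate numbers pair the libraries. Across passages, correlations of same-numbered deviations ran from -0.262 to 0.276 (over 0.1 in 11 of 24 pairs), beside -0.318 to 0.245 for other pairs. The replicate block put Prelp past 2-fold at P7 against P3 (1.02), as DESeq2 (1.004) did, and changed no other call or count of members. Over all genes, dropping the fold limit gave 2.91 to 27.4 times as many calls, at least 10 counts in every library gave 0.403 to 0.634 times as many in 9 comparisons, and DESeq2 called 16 in place of 35 at Tead1 sh4 against sh3. Dropping the fold limit can only add calls, and the count minimum takes genes out before the test. The cause of the DESeq2 difference was not tested. Omd, with 8 to 19 counts in some libraries, is the member that depth limits most.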
